A study of Mus musculus with 6 samples.

Results

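The genes of respiratory complexes III, IV and V were defined by name, as every symbol of the expression table that begins with *Uqc*, with *Cox* and a digit, or with *Atp5*, together with *Cyc1* and *Cycs*. *Cox7a1* and *Cox8b* and the name that ends in -ps were left out. The rule gave 53 of 52089 symbols. Of these, 9 encode subunits of complex III, 16 subunits of complex IV including tissue-specific copies, 15 subunits of complex V, and *Cycs* encodes cytochrome c. The remaining 12 are 1 assembly factor of complex III, 9 of complex IV and 2 genes that carry an *Atp5* name without encoding a core subunit, *Atp5s* and *Atp5sl*. All members are encoded in the nucleus.

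Expression was measured by deep RNA sequencing in 3 *Ctcflos* knockdown (KD) and 3 nontargeting control (NC ctrl) libraries of primary brite adipocytes, the thermogenic fat cells that arise within white fat. Preadipocytes came from inguinal WAT of male 129SvEv mice of 5 to 6 weeks as the stromal-vascular fraction, a mixed cell pool rather than a pure line, and both groups were induced and then differentiated with rosiglitazone, a PPARγ agonist that drives browning. Both groups also received 50 nM of an LNA gapmer antisense oligonucleotide by reverse transfection on the first day of differentiation, directed against transcript 1 of the lncRNA *Ctcflos* in the KD and against no target in the control, and were harvested 24 h later. The KD rests on 1 oligonucleotide sequence, so that loss of *Ctcflos* and any other effect of that oligonucleotide cannot be told apart in these libraries.

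Complex III passes electrons from ubiquinol to cytochrome c, complex IV (cytochrome c oxidase) passes them on to oxygen, and both pump protons across the inner mitochondrial membrane. Complex V, the ATP synthase, lets protons flow back and makes ATP, whereas UCP1 in thermogenic adipocytes lets them return as heat. Complexes III and IV cannot form without assembly factors that insert heme, copper and the subunits encoded by mitochondrial DNA, and these factors are not part of the finished enzyme.

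After *Ctcflos* KD, 4 members were called lower and 1 higher, and all 5 lay among the 12 assembly and other genes. *Cox10*, *Cox16*, *Uqcc* and *Atp5s* fell, to between 38.2% and 69.2% of the control RPKM, and *Cox18* rose to 160% of control. *Atp5s*, the lowest of these values, passed the filter on low values only through its controls, and the other 3 lay between 48.3% and 69.2%. None of the 36 measured subunits and cytochrome c was called by limma in either direction, although 33 of them had a negative log2 fold change and 1, *Cox4i1*, had an unadjusted p below 0.05. A member was called when its adjusted p was below 0.05, by limma-trend on log2(RPKM + 1) with Benjamini-Hochberg adjustment over all 11701 genes that averaged at least 1 RPKM. By this rule 12.4% of all genes tested were called lower and 11.5% higher, against 8.33% and 2.08% of the 48 members tested. The number of calls among the members was therefore not above the background of these libraries. At an unadjusted p below 0.05 (limma), 2212 of all 11701 genes were lower and 2344 higher.

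**Figure D1:**
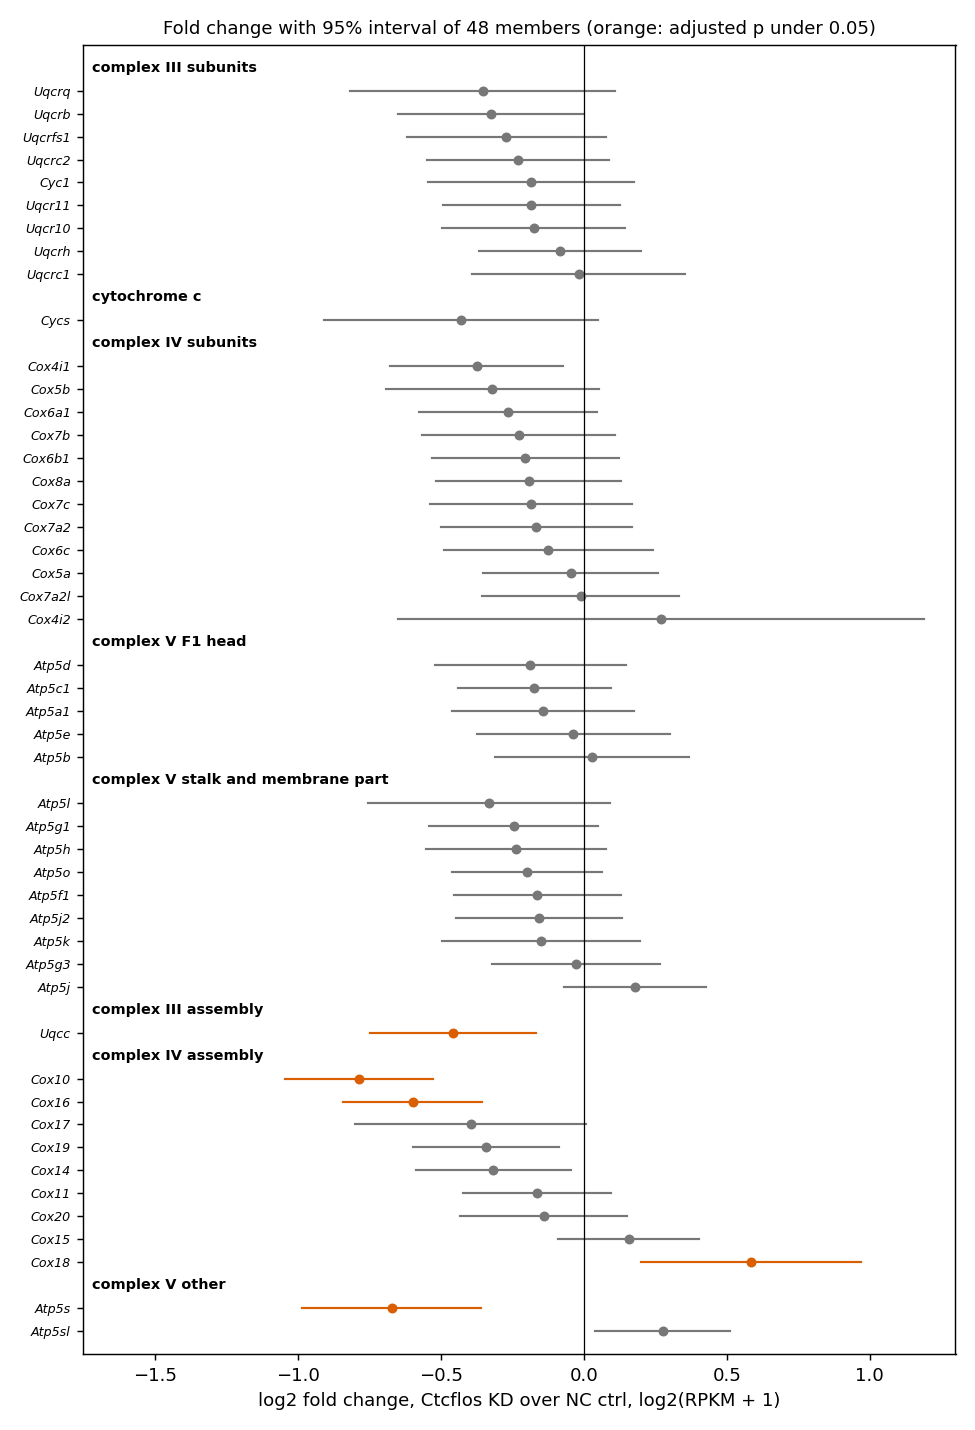
Log2 fold change of *Ctcflos* KD over NC ctrl (x axis, log2(RPKM + 1) scale) of the 48 members tested, ordered by role; points are limma estimates, bars 95% intervals, and orange marks an adjusted p below 0.05. The 5 orange genes are all in the assembly and other groups, and most subunits lie left of 0 with intervals that cross it.

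Several features of the libraries bear on every value below. *Ctcflos* (1300015D01Rik) had 0.0969, 0.0705 and 0.210 RPKM in KD 1 to 3 and 0.748, 0.751 and 0.840 RPKM in NC ctrl 1 to 3, so its level was lower in each KD library. NC ctrl 2 stood apart from the other controls: all 48 members tested were lower in it than in the mean of NC ctrl 1 and 3, by a median of 0.22 on the log2 scale, against 7501 of 11701 genes and a median of 0.06 for all genes. It also had the highest summed level of the smooth muscle markers (*Acta2*, *Myh11*, *Cnn1*), 86.4 RPKM against 17.6 to 49.6 RPKM in the other 5 libraries, and of the macrophage and leukocyte markers, 27.3 against 6.61 to 16.1 RPKM. The latter sum was mostly *Lyz2*, at 24.5 RPKM in NC ctrl 2, while the defining marker *Ptprc* was at no more than 0.0486 RPKM in any library. *Cd68* went the other way, with 4.12, 3.44 and 2.16 RPKM in KD 1 to 3 and 0.657, 1.92 and 0.664 RPKM in NC ctrl 1 to 3, and was called higher in the KD (log2 fold change 1.05, adjusted p = 0.023, limma). *Csf1r*, under the filter and so not tested, was also higher in the KD, with 1.31, 1.48 and 1.10 against 0.269, 0.833 and 0.438 RPKM. The adipocyte progenitor markers summed to 179 to 449 RPKM, mostly *Ly6a*, with the KD and control ranges overlapping. Of the 4 tested, 1 was called lower, *Pdgfra* (log2 fold change -0.69, adjusted p = 0.010, limma). *Ly6a* was at -0.36, while *Pdgfrb* and *Cd34* were above 0, at 0.17 each, and none of these was called by limma. The part of these cells in the members' values was not tested. Markers of the labelled cell type were abundant: the adipocyte list, headed by *Fabp4*, summed to 4194 to 6482 RPKM, with every KD library below every control and 0 of 6 genes called by limma. Of the 5 brite markers 2 were called lower, *Ucp1* and *Elovl3*. For *Ucp1* (adjusted p = 0.048, limma), KD 2 at 26.1 RPKM nearly reached NC ctrl 2 at 27.1 RPKM. Beside these marker counts, 12.4% of all genes tested were called lower and 11.5% higher. Endothelial, epithelial and skeletal muscle markers summed to at most 4.79 RPKM in any library. Fewer cells of a type and less RNA per cell cannot be told apart in such bulk samples.

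The central tendency of the members followed that split. Their median log2 difference from the mean of the controls was -0.21, -0.14 and -0.23 in KD 1 to 3, and 0.08, -0.15 and 0.08 in NC ctrl 1 to 3. NC ctrl 2 thus lay inside the range of the KD libraries, and the groups overlapped. The same medians over all genes tested stayed between -0.04 and 0.05. Across the members the median log2 fold change was -0.19, against 0.03 for all genes tested, and 42 of 48 members were negative, against 46.8% of all genes. Leaving out 1 library at a time, the median ranged from -0.27 without NC ctrl 2, with 43 of 48 members negative, to -0.15 without NC ctrl 1, with 38 negative. In 13 of 48 members, or 27.1%, every KD library lay below every control, which held for 21.9% of all genes tested, and in 3 members every KD library lay above, against 22.9% of all genes.

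**Figure D2:**
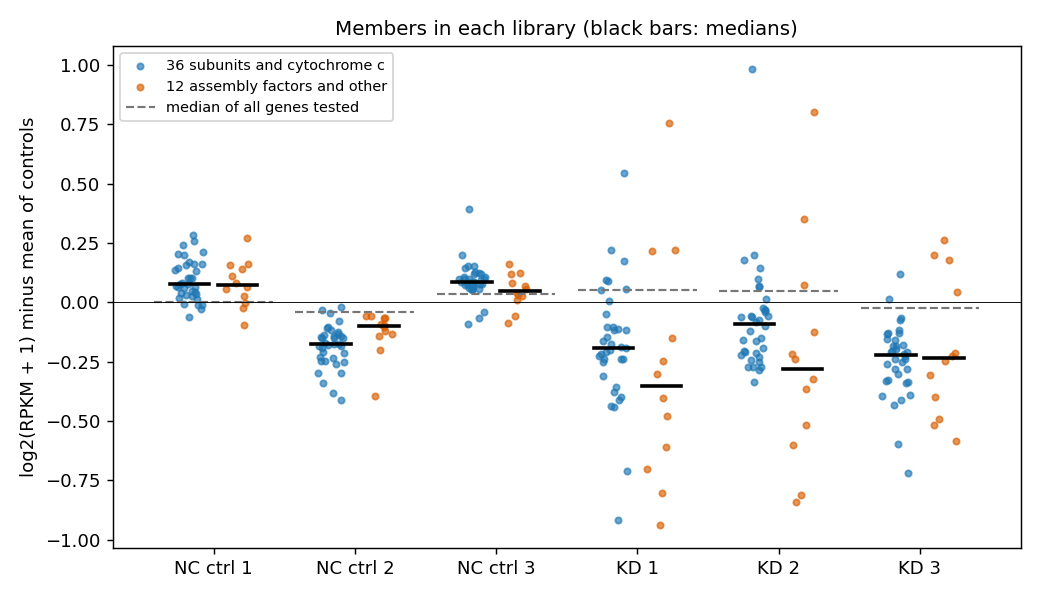
Difference in log2(RPKM + 1) between each library and the mean of the 3 controls (y axis) for every member tested, in 6 libraries; blue points are subunits and cytochrome c, orange points assembly and other genes, black bars their medians and dashed lines the median of all genes tested. NC ctrl 2 has medians below 0 for both sets, as the KD libraries do, and orange points spread most widely in KD 1 and KD 2.

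The genes with the lowest adjusted p among the members were factors that make cytochrome c oxidase. *Cox10* encodes heme A farnesyltransferase, which carries out the first step of making the heme A of complex IV. It had 1.72, 1.91 and 2.48 RPKM in KD 1 to 3 and 4.30, 4.002 and 4.31 RPKM in NC ctrl 1 to 3. The groups did not overlap, and NC ctrl 2 was close to the other controls. The log2 fold change of *Cox10* on log2(RPKM + 1) was -0.79 (SE 0.112, adjusted p = 0.0059, limma). Its mean RPKM without the added 1 was 48.3% of control. *Cox10* was the only member called under all 13 other ways of running the test. All 7 table entries for *Cox10* were lower in the KD. Its gene is at chr11:63962627-64079468 on the minus strand (GRCm38), and the antisense genes 9630013K17Rik and Gm12289 lie within it, the first of them at no more than 0.106 RPKM in any library.

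*Cox16*, a factor that helps to build the COX2 subunit into complex IV, had 3.41, 3.74 and 4.12 RPKM in KD 1 to 3 and 6.06, 5.74 and 6.81 RPKM in NC ctrl 1 to 3. Again the KD libraries were all below the controls, and the log2 fold change was -0.60 (SE 0.105, adjusted p = 0.0099, limma). This value is a mean over 14 table entries, which did not move alike. The highest pair of cDNA entries had between 5.31 and 9.98 RPKM in the KD and between 17.5 and 21.4 RPKM in the controls. The RefSeq mRNA had 3.24, 3.33 and 3.74 against 4.26, 4.06 and 4.92 RPKM, and the Ensembl transcript 8.33, 10.03 and 9.05 against 8.59, 9.29 and 11.04 RPKM, where the groups overlapped. With RefSeq mRNAs alone the log2 fold change was -0.28 and *Cox16* was not called (adjusted p = 0.065, limma). The call was also lost without NC ctrl 1 (adjusted p = 0.053, limma) or NC ctrl 3 (adjusted p = 0.057, limma). The gene spans chr12:81359026-81485127 on the minus strand (GRCm38), and the protein-coding gene Gm20498 covers it on the same strand, so reads of the pair may be shared.

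**Figure D3:**
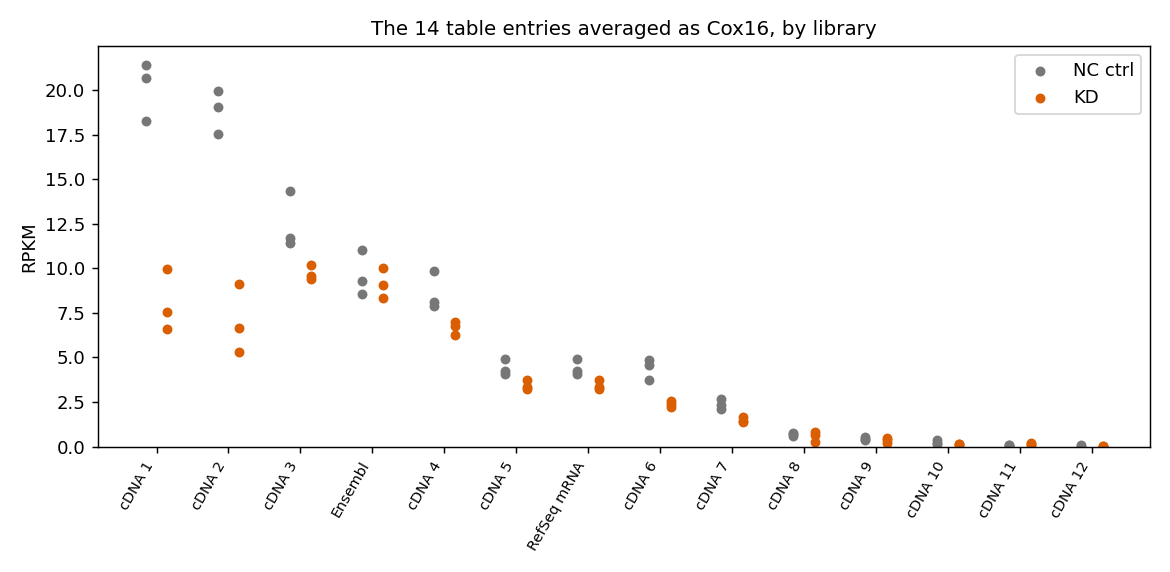
RPKM (y axis) of each of the 14 table entries that carry the name *Cox16* (x axis, ordered by mean level) in 3 NC ctrl (grey) and 3 KD (orange) libraries. The leftmost pair of cDNA entries separates the groups most, while the Ensembl transcript and most low entries overlap.

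Outside complex IV, *Uqcc* (Uqcc1 in current annotation) encodes an assembly factor for cytochrome b of complex III. It had 4.20, 4.54 and 5.69 RPKM in KD 1 to 3 and 7.25, 6.19 and 7.40 RPKM in NC ctrl 1 to 3. No KD library reached the lowest control, which was NC ctrl 2, and the log2 fold change was -0.46 (SE 0.126, adjusted p = 0.035, limma). The call was lost in 7 of 13 alternatives. These were the fit without a filter, the fit with a replicate block, and leaving out any library but KD 3, with adjusted p from 0.051 to 0.13 by limma.

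*Atp5s* (Dmac2l), which encodes factor B, a protein tied to the coupling of ATP synthase, was the lowest member tested. It had 0.412, 0.405 and 0.872 RPKM in KD 1 to 3 and 1.66, 1.25 and 1.51 RPKM in NC ctrl 1 to 3. Its mean of 1.02 RPKM passed the filter only through the controls. The groups did not overlap, with KD 3 about midway, and the log2 fold change was -0.67 (SE 0.136, adjusted p = 0.015, limma). On log2(RPKM + 0.1), which shrinks low genes less, it was -1.31. The call was lost without KD 2 (adjusted p = 0.052, limma), NC ctrl 1 (adjusted p = 0.069, limma) or NC ctrl 3 (adjusted p = 0.067, limma).

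*Cox18* was the only member called higher. Its product is an insertase of the inner membrane that moves the tail of COX2 across it. It had 12.4, 12.8 and 8.10 RPKM in KD 1 to 3 and 7.38, 6.44 and 6.97 RPKM in NC ctrl 1 to 3. KD 3 was close to the controls while KD 1 and KD 2 stood clear of them. The log2 fold change was 0.58 (SE 0.167, adjusted p = 0.039, limma), and all 9 table entries for the gene were higher in the KD. The call held in 6 of 13 alternatives. It was lost when any library but KD 3 was left out, with adjusted p from 0.10 to 0.12 by limma, and without KD 3 the change was 0.78 (adjusted p = 0.0013, limma).

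**Figure D4:**
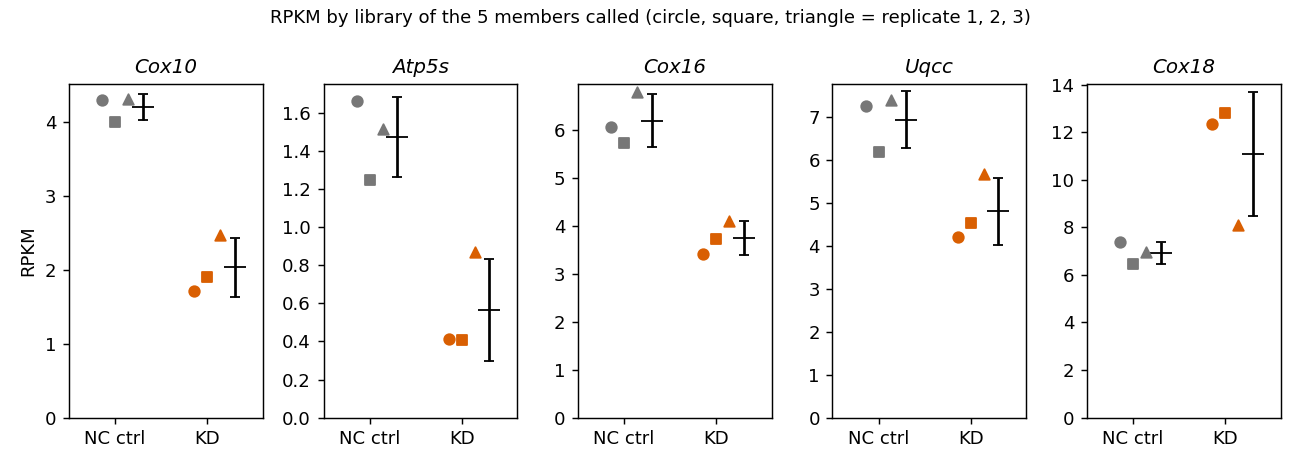
RPKM (y axis, from 0) of the 5 called members in NC ctrl (grey) and KD (orange); symbols are replicates 1 to 3, black marks the mean with its SD. In each panel the groups do not overlap, and KD 3 lies nearest to the controls.

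The RefSeq promoter windows (GRCm38.p6, from 250 bases before to 50 bases after the start) are shown for the 4 genes that fell, with *Cycs* for comparison, a long-known target of the factor NRF1. RefSeq windows were matched for 41 of the 53 members. Capitals mark letters found by a search of both strands for 4 motifs: CGCATGCG (NRF1), AAGATGGC (YY1), TCAAGGTCA (estrogen-related receptor) and CCGGAAG (ETS factors such as GABP). They are given 5′ to 3′ along each gene. The first window is chr11:64079423-64079722 (minus strand), the second chr12:81485088-81485387 (minus), the third chr2:155930261-155930560 (minus), the fourth chr12:69724695-69724994 (plus) and the last chr6:50566520-50566819 (minus).
Cox10: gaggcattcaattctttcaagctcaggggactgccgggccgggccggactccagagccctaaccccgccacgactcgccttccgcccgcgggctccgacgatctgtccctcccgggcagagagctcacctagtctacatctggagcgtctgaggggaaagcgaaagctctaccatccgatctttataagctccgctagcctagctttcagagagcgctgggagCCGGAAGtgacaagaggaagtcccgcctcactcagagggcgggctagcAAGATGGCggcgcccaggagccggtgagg
Cox16: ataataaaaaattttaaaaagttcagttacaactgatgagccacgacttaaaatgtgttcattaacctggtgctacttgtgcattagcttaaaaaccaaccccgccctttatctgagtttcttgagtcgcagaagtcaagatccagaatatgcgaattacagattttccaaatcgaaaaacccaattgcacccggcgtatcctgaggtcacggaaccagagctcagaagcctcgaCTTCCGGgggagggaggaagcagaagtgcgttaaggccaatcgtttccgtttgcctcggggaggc
Uqcc: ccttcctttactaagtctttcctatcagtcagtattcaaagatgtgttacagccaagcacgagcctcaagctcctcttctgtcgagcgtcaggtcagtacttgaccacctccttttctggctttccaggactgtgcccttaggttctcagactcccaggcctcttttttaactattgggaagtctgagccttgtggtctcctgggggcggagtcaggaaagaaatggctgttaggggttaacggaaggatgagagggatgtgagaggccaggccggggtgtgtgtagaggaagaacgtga
Atp5s: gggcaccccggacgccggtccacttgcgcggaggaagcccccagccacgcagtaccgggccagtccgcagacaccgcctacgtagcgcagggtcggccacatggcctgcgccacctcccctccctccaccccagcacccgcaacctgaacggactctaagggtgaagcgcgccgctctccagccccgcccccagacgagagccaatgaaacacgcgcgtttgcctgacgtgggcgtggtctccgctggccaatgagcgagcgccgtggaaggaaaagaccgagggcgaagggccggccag
Cycs: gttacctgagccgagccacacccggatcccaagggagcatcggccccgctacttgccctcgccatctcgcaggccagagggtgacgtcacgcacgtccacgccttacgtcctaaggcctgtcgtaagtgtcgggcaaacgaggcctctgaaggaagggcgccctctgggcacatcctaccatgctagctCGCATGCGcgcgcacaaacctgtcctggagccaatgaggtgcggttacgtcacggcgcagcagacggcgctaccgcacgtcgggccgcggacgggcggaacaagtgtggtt

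No motif was shared by the windows of all 4 genes called lower, and no window was matched for *Cox18*, the gene called higher. *Cox10* held the YY1 and the ETS letters, *Cox16* the ETS letters on the opposite strand in the window shown and on its own strand in a second RefSeq window (chr12:81484802-81485101), and *Uqcc* and *Atp5s* none of the 4. Over the members, the NRF1 letters were present in 8 of 41 genes, or 19.5%, against 2.07% of all 27025 genes with a window and 4.82% of the genes tested. All 8 were subunits or cytochrome c, among them *Cycs*, *Uqcr11*, *Uqcrc1*, *Cox6a1* and *Atp5l*, and none of the 8 was called by limma (*Atp5g2* was under the filter). The ETS letters were in 36.6% of members and 22.3% of genes tested, the YY1 letters in 14.6% and 6.0%, and the estrogen-related receptor letters in 1 member, *Atp5g3*, or 2.44% against 0.302%. These are matches of letters and carry no measure of binding.

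Of the 4 genes called lower, 3 shared an unusual length. *Cox16*, *Cox10* and *Uqcc* span 126, 117 and 83.4 kb in the GENCODE vM21 annotation, and were the only members tested that span at least 50 kb, a limit chosen after the values were seen. Among the 44 other members with a span, 1 was called lower, *Atp5s* at 19.7 kb. The longest subunit gene tested, *Atp5c1*, spans 24.5 kb, and the median over members is 6.82 kb against 20.9 kb over all genes tested. Over all genes, 30.8% of the 2104 that span at least 50 kb were called lower, against 8.45% of shorter ones. Across the 47 members with a span, Spearman's rho of length and log2 fold change was 0.02, given as a description over genes of the same libraries. The part of gene length in these calls was not tested.

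**Figure D5:**
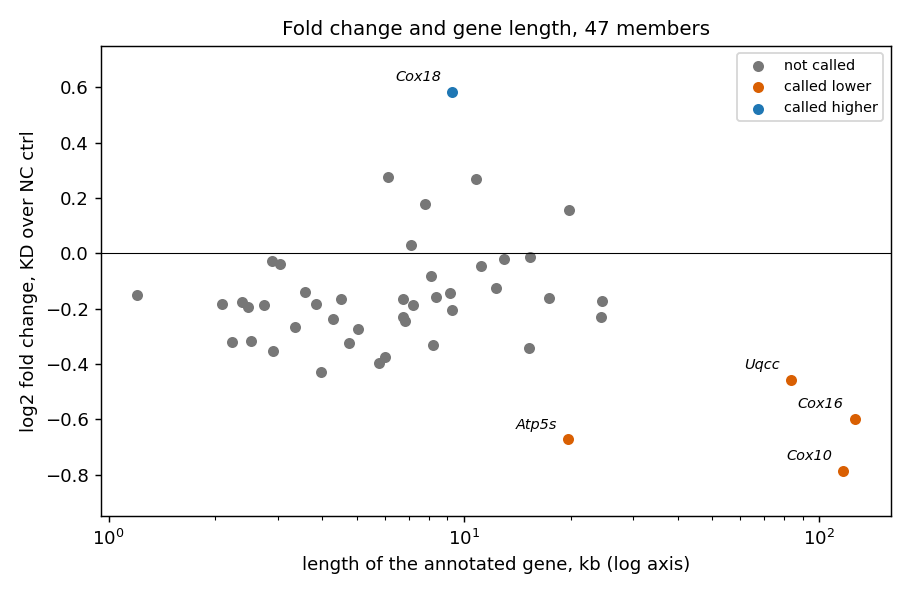
Log2 fold change of KD over NC ctrl (y axis) against the annotated length of the gene in kb (x axis, log scale) for 47 members. The 3 genes beyond 50 kb are all called lower, *Atp5s* is the only shorter one, and the shorter genes scatter around a value slightly below 0.

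The other 6 assembly factors of complex IV and *Atp5sl* were not called. *Cox19*, a copper-binding protein of the intermembrane space, came nearest, with 9.33, 10.5 and 11.3 RPKM in KD 1 to 3 and 13.4, 12.8 and 14.1 RPKM in NC ctrl 1 to 3. Although the groups did not overlap, its log2 fold change of -0.34 missed the threshold (95% interval -0.60 to -0.09, adjusted p = 0.056, limma). *Cox14*, which couples the synthesis of COX1 to its assembly, had 30.6, 34.4 and 32.9 against 42.8, 37.5 and 42.4 RPKM, a log2 fold change of -0.32 (adjusted p = 0.085, limma). *Cox17*, the copper chaperone, had 10.8, 10.3 and 9.17 against 16.6, 10.1 and 14.9 RPKM, so that NC ctrl 2 lay among the KD libraries, and without NC ctrl 2 it was called lower, at -0.59 (adjusted p = 0.033, limma). *Cox11*, another copper factor, and *Cox20*, a chaperone of COX2, had log2 fold changes of -0.16 and -0.14. The *Cox20* value averages entries that went opposite ways. With RefSeq mRNAs alone it was -0.31 (adjusted p = 0.15, limma). The Ensembl entry of *Cox20* had 14.3, 12.2 and 15.6 RPKM in KD 1 to 3 and 11.9, 13.8 and 9.07 RPKM in NC ctrl 1 to 3. The heme A synthase gene *Cox15*, which acts right after *Cox10* in the same pathway, had 7.82, 6.96 and 7.57 against 7.35, 6.28 and 6.14 RPKM (log2 fold change 0.16, adjusted p = 0.31, limma). *Atp5sl* (Dmac2), which acts in the assembly of complex I despite its name, had 2.89, 3.28 and 3.02 against 2.14, 2.21 and 2.75 RPKM, with no overlap and a log2 fold change of 0.28 (adjusted p = 0.087, limma).

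Among the subunits, complex III had 9 members with log2 fold changes from -0.35 to -0.02 and a median of -0.19. *Uqcrfs1*, the Rieske iron-sulfur protein, had 148, 167 and 170 RPKM in KD 1 to 3 and 219, 164 and 207 RPKM in NC ctrl 1 to 3. *Cyc1*, cytochrome c1, had 45.1, 38.5 and 39.5 against 52.7, 37.8 and 51.0 RPKM. In both genes NC ctrl 2 lay among or below the KD libraries and the other controls above them, and the intervals of -0.62 to 0.08 and -0.55 to 0.17 include 0. *Uqcrb*, the ubiquinone-binding subunit, was the only one of the 9 without overlap, with 87.2, 91.9 and 99.3 against 130, 100.3 and 121 RPKM (log2 fold change -0.32, adjusted p = 0.13, limma). Its KD 3 was close to NC ctrl 2. Every KD library below every control was thus seen in 11.1% of the 9 genes and in 21.9% of all genes tested. The summed RPKM of the 9 genes was 819 ± 22.0 in the KD and 947 ± 116 in the controls (SD, n = 3 each), or 86.5% of control, and the values of NC ctrl 2, 813.07, and KD 1, 812.88, were nearly equal.

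Cytochrome c itself (*Cycs*) had 37.7, 60.9 and 65.9 RPKM in KD 1 to 3 and 72.9, 67.0 and 77.1 RPKM in NC ctrl 1 to 3. KD 1 was far below the other libraries, and KD 3 was close to NC ctrl 2. The log2 fold change of -0.43 had an interval of -0.91 to 0.05 (adjusted p = 0.16, limma), and it was -0.19 without KD 1. It was called in none of the 13 alternatives, with adjusted p of at least 0.055 by limma. The values are means over 11 table entries of unlike level, each lower on average in the KD. The highest cDNA entry averaged 456 RPKM over all libraries and the RefSeq mRNA 9.78 RPKM. In the RefSeq mRNA the groups overlapped, with 6.55, 8.37 and 10.7 RPKM in KD 1 to 3 and 11.4, 10.2 and 11.4 RPKM in NC ctrl 1 to 3.

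Complex IV is carried by one copy of each subunit in most tissues, and several subunits have a second copy with restricted expression. Among the copies kept by the naming rule, the common ones dominated in these cells. The restricted copies *Cox7a1* and *Cox8b*, left out by the rule, averaged 7.59 and 20.7 RPKM in the controls. In the KD they averaged 5.14 and 11.4 RPKM, and neither was called (adjusted p = 0.24 and 0.066, limma). Their common counterparts *Cox7a2* and *Cox8a* averaged 55.7 and 423 RPKM in the controls and 49.3 and 369 RPKM in the KD. By the mean over table entries, *Cox8a* was the highest member at 396 RPKM over all libraries, followed by *Atp5b*, *Cox6a1* and *Cox6b1* at 318, 275 and 247 RPKM. The order depends on this averaging, since the RefSeq mRNA of *Atp5b* averaged 419 RPKM and that of *Cox8a* 381 RPKM. Of the restricted copies, *Cox6a2* made up 0.162% to 0.227% of the summed RPKM of *Cox6a1* and *Cox6a2*, and *Cox6b2* 0.179% to 0.344% of that of *Cox6b1* and *Cox6b2*. *Cox8c* was listed at 0 in all 6 libraries, and *Cox7b2* at 0 in 5 with 0.0501 RPKM in NC ctrl 2. *Cox4i2*, the copy of subunit 4 best known from lung and hypoxia, had 2.00, 3.07 and 0.248 RPKM in KD 1 to 3 and 1.04, 0.579 and 1.70 RPKM in NC ctrl 1 to 3. It varied more within the KD than between the groups, and left no direction: the log2 fold change was 0.27 (interval -0.65 to 1.19), -0.09 without KD 2, and 0.76 and called without KD 3 (adjusted p = 0.032, limma).

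*Cox4i1*, the common copy of subunit 4, which is among the first nuclear subunits added to COX1, was the subunit nearest to a call. It had 133, 152 and 134 RPKM in KD 1 to 3 and 185, 165 and 194 RPKM in NC ctrl 1 to 3, with no overlap. The log2 fold change was -0.37 (SE 0.131, interval -0.68 to -0.07, adjusted p = 0.072, limma), and it passed the threshold in 1 of 13 alternatives, scaling by the median of ratios (adjusted p = 0.034, limma). *Cox6a1* was likewise lower in every KD library, with 253, 268 and 227 against 313, 271 and 316 RPKM (log2 fold change -0.26, adjusted p = 0.18, limma). Overlap was seen for *Cox6b1*, which had 223, 257 and 208 against 275, 238 and 279 RPKM. *Cox8a*, a small membrane subunit, had 357, 403 and 347 against 452, 373 and 444 RPKM (log2 fold change -0.19, interval -0.52 to 0.13). *Cox7a2*, the widely expressed copy of subunit 7a, had 51.0, 53.2 and 43.9 against 64.3, 48.9 and 53.8 RPKM. *Cox7a2l*, whose product joins complexes III and IV into a supercomplex, had 49.7, 66.2 and 59.0 against 58.2, 52.5 and 65.1 RPKM. The *Cox7a2l* log2 fold change of -0.01 had an interval of -0.36 to 0.33, and its share of the summed RPKM of the pair was 54.1% ± 4.16 in the KD and 51.3% ± 3.66 in the controls (SD, n = 3 each). Over the 12 complex IV subunits tested the median log2 fold change was -0.19.

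In complex V the catalytic subunit beta, *Atp5b*, had 335, 347 and 282 RPKM in KD 1 to 3 and 333, 277 and 336 RPKM in NC ctrl 1 to 3. Its log2 fold change was 0.03 (interval -0.31 to 0.37), with KD 3 and NC ctrl 2 as the lowest libraries of their groups. The other F1 subunits were between -0.19 (*Atp5d*) and -0.04 (*Atp5e*), and *Atp5c1*, the central gamma subunit, alone had no overlap, with 59.1, 66.7 and 62.2 against 70.2, 68.5 and 73.4 RPKM. Its log2 fold change of -0.17 was not called (adjusted p = 0.30, limma).

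Subunit c, the ring through which protons pass, is encoded by 3 genes that give the same mature protein. *Atp5g1* had 48.5, 51.8 and 60.02 RPKM in KD 1 to 3 and 60.6, 62.5 and 66.8 RPKM in NC ctrl 1 to 3, without overlap (log2 fold change -0.24, adjusted p = 0.19, limma). *Atp5g3* had 65.9, 76.7 and 68.4 against 75.6, 65.0 and 74.6 RPKM (log2 fold change -0.03). *Atp5g2* was listed at 0.0699 to 0.133 RPKM in all libraries. The share of *Atp5g1* in the sum of the 3 genes was 43.1% ± 3.29 in the KD and 46.9% ± 2.29 in the controls (SD, n = 3 each), and the ranges of 40.3% to 46.7% and 44.4% to 49.0% overlapped. *Atp5j*, the coupling factor 6 of the peripheral stalk, was the only subunit with every KD library above every control, at 19.996, 19.7 and 18.6 against 17.2, 15.8 and 18.1 RPKM (log2 fold change 0.18, adjusted p = 0.25, limma). That was 2.78% of the 36 subunits and cytochrome c tested, against 22.9% of all genes tested. Summed over its 15 subunit genes, complex V stood at 1096 ± 65.6 RPKM in the KD and 1192 ± 114 RPKM in the controls (SD, n = 3 each).

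Related genes outside the naming rule were read from lists of the same pathway. Of 28 measured genes, mostly for assembly and regulation, 7, or 25.0%, were called lower and 0 higher by limma. The shares over all genes tested were 12.4% and 11.5%. At an unadjusted p below 0.05 (limma), 9 of the 28 were lower and 0 higher, beside 2212 and 2344 of all 11701 genes. The list also held *Ndufa4*, *Usmg5* and 2010107E04Rik, which encode subunits. None of them was called, and *Ndufa4* is counted again below, in the complex I list drawn by name. The 7 called lower were *Atpaf2*, *Lrpprc*, *Pet100*, *Coa3*, *Cmc2*, *Smim20* and *Cmc1*. *Atpaf2*, which assembles the F1 part of ATP synthase, had 5.50, 5.91 and 7.32 against 10.6, 9.36 and 11.4 RPKM (log2 fold change -0.67, adjusted p = 0.013, limma). *Lrpprc*, which stabilises mitochondrial mRNAs, had 1.61, 1.68 and 2.69 against 3.49, 3.37 and 3.596 RPKM (log2 fold change -0.60, adjusted p = 0.021, limma). *Pet100* and *Coa3*, which act in the assembly of complex IV, had log2 fold changes of -0.51 and -0.50. The median of the 28 was -0.05, since the list also held genes on the other side of 0 such as *Sco2*, a copper chaperone, at 0.29 (adjusted p = 0.13, limma).

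Neighbouring complexes of the chain gave similar medians. The complex I list was drawn by names that begin with *Nduf*, so *Ndufa4* and *Ndufa4l2* are in it by name alone. It had 36 genes tested, of which 5, or 13.9%, were called lower and 0 higher by limma. Over all genes tested the shares were 12.4% and 11.5%. At an unadjusted p below 0.05 (limma), 11 of the 36 were lower and 0 higher, beside 2212 and 2344 of all 11701 genes. The median log2 fold change of the 36 was -0.23. Here too NC ctrl 2 was below the mean of the other controls in all 36 genes. *Ndufs4* stood out with 4.97, 6.21 and 8.06 against 14.03, 12.8 and 13.9 RPKM (log2 fold change -0.99, adjusted p = 0.0075, limma). The 4 subunits of complex II had a median of -0.16 with none called by limma and none at an unadjusted p below 0.05. Of the mitochondrially encoded partners, COX1 had 4485, 5359 and 5788 RPKM in KD 1 to 3 and 5887, 6365 and 6014 RPKM in NC ctrl 1 to 3, without overlap (log2 fold change -0.23, adjusted p = 0.25, limma). The entries named COX2 and COX3 were listed at no more than 7.79 RPKM in any library, far under COX1, and were not read further.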

How the data were processed

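Total RNA libraries (TruSeq Stranded Total RNA) were sequenced in 150 bp paired-end reads on an Illumina HiSeq instrument, with all 6 libraries in 1 lane. The authors deposited RPKM values (reads per kilobase per mio mapped reads) for 168326 table entries from RefSeq, Ensembl and GenBank, of which 305 exact repeats were removed. How these values were counted, and whether strand was used, is not given in the sources used here. On Ensembl entries, 97.3% to 97.7% of low values were whole multiples (within 0.1) of the worth of 1 read, which places the libraries at 60.7 to 78.9 mio counted reads. This depth sets the precision of low genes, in counting error only.

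Values were averaged per symbol, so overlapping entries count repeatedly. Genes with a mean of at least 1 RPKM entered limma 3.58.1 (R 4.3.3), as limma-trend on log2(RPKM + 1) of KD against NC ctrl with Benjamini-Hochberg adjustment over 11701 genes. A fold change on this scale understates low genes. Nothing states that replicates were separate cultures, so p-values measure the spread between these samples. With 3 against 3 libraries an exact permutation test cannot go below p = 0.1, and none was run.

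Named with values were all called members, a preset group of main subunits and paralogs, and members under the filter with RPKM alone. Further members, neighbours and pathway genes near a threshold were named after their values were seen. The members and lists were chosen with earlier results of these data known. Alternatives were a pseudocount of 0.1, no filter, median of ratios scaling, a replicate block, 3 other ways of collapsing entries, a threshold of 0.01 and leaving out each library. The fit was tested on simulated data.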

Additional observations from a re-analysis of the deposited data

How the results depend on the processing

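The number of members called lower, 4, became 7 with scaling by the median of ratios (*Cox14*, *Cox19* and *Cox4i1* were added). Over all 11701 genes it rose as well, from 1454 to 1634. At an adjusted p below 0.01, 2 members were lower. The number of members ranged from 1 to 5 when a library was left out. It was 1, *Cox10*, without NC ctrl 1 or without NC ctrl 3, beside 304 and 281 of all genes. Without KD 2 it was 2, beside 622 of all genes, and without KD 3 it was 5, beside 2060. The number called higher, 1, became 0 without a filter, with the replicate block and at an adjusted p below 0.01. It ranged from 0 to 2 when a library was left out (2 without KD 3, 0 without any other). Over all genes, 1349 were called higher in the main fit, 2724 without KD 3 and 130 to 625 without any other library. At an unadjusted p below 0.05 (limma), 7 members were lower and 2 higher, beside 2212 and 2344 of all 11701 genes tested. The median log2 fold change stayed between -0.27 and -0.15 in all alternatives. With the replicate block 3 members were lower, without *Uqcc*, and calls over all genes fell from 2803 to 1671. The deviations of same-numbered libraries correlated at 0.29, -0.29 and -0.42. With 3 libraries per group, whose deviations sum to 0, these values cannot settle whether the numbers pair the samples. Calls over all genes ranged from 423 without NC ctrl 3 and 434 without NC ctrl 1 to 4784 without KD 3, and were 1807 without a filter. At an adjusted p below 0.01 they numbered 523. *Atp5b* turned to -0.0088 with the median of ratios. Leaving out libraries turned the sign of 8 members, none of them called with all libraries: *Atp5b* (-0.061 to 0.12), *Atp5e* (-0.17 to 0.064), *Atp5g3* (-0.096 to 0.018), *Cox4i2* (-0.088 to 0.76), *Cox5a* (-0.12 to 0.075), *Cox6c* (-0.23 to 0.0090), *Cox7a2l* (-0.11 to 0.097) and *Uqcrc1* (-0.17 to 0.080). The cause of these shifts was not tested. Members under 1 RPKM, few reads even at this depth, were given no fold change.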
